A study of Mus musculus with 12 samples.

Results

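The 10 genes described here encode proteins of the intestinal and gastric mucosa: the trefoil peptides *Tff1*, *Tff2* and *Tff3*, the mucins *Muc2* and *Muc13*, the lectins *Reg3b* and *Reg3g*, the fatty acid binding proteins *Fabp1* and *Fabp2*, and villin, *Vil1*. They were chosen by symbol, with no threshold on any measured value, and all 10 were found among the 34547 genes to which the deposited transcripts were summed and among the 34677 genes of the deposited table of regularized log2 counts (rlog). RNA had been sequenced from 12 libraries of mouse thymic epithelial cells (TEC), 3 in each of 4 groups: cortical TEC (cTEC) and medullary TEC (mTEC) of wild-type (WT) C57BL/6 mice and of Aβ0/0 mice. Aβ0/0 mice carry a disrupted *H2-Ab1*, the gene of the MHC class II β chain, in every cell, so that they lack MHC class II on TEC and on hematopoietic cells alike and make few CD4+ T cells. Each library came from a pool of 5 to 10 untreated mice of 4 to 6 weeks of age. After depletion of CD45+ cells, epithelial cells (Epcam+, CD45-) were sorted into cTEC, which carry Ly51 and do not bind the lectin UEA1, and mTEC, which bind UEA1 and lack Ly51. WT mice were bought from a breeder while Aβ0/0 mice came from another laboratory, so the source of the mice and the genotype cannot be told apart.

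mTEC transcribe many genes that are otherwise restricted to peripheral tissues, so that developing T cells meet these self-antigens in the thymus. The transcriptional regulators Aire and Fezf2 each act on a part of them, and some mTEC take on programs of peripheral epithelia, among them those of tuft cells, microfold cells and enterocytes. In the gut, trefoil peptides are small secreted proteins that act with mucins in protecting and repairing the epithelium, TFF1 and TFF2 mainly in the stomach and TFF3 in goblet cells. MUC2 is the gel-forming mucin of intestinal mucus and MUC13 a mucin anchored in the cell membrane. REG3B and REG3G are secreted C-type lectins that bind bacteria. FABP1 and FABP2 carry fatty acids in the cytoplasm of enterocytes, and villin bundles actin in the microvilli of the brush border.

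All 10 genes are protein coding, and positions are given on GRCm38 as in GENCODE M21. The trefoil genes lie side by side on the minus strand, *Tff3* at chr17:31125306-31129646, *Tff2* at chr17:31141049-31144282 and *Tff1* at chr17:31161395-31165277. *Reg3b* (chr6:78370657-78373466, plus strand) and *Reg3g* (chr6:78466269-78468872, minus strand) flank a cluster with *Reg3d*, *Reg3a*, *Reg2* and *Reg1*. *Fabp1* lies at chr6:71199827-71205023, *Fabp2* at chr3:122895072-122899506, *Muc2* at chr7:141690340-141754693, *Muc13* at chr16:33794037-33819934 and *Vil1* at chr1:74409376-74435559, all on the plus strand. Since reads of related genes can be assigned to the wrong copy, the transcripts were compared with those of every other gene. Of all 31-base words in a gene's transcripts, between 0% (*Tff2*, *Tff3*, *Muc2*, *Fabp1* and *Fabp2*) and 0.592% (*Vil1*, 21 words shared with *Avil* and the neighbouring *Usp37*) occurred in another gene. The coding sequences of *Reg3b* and *Reg3g* were the most alike, with 76.4% identical bases over 525 aligned positions, against 62.2% to 70.2% between the trefoil genes and 63.1% between *Fabp1* and *Fabp2*. The 5 words that *Reg3b* and *Reg3g* shared all lay in 1 stretch of 35 bases, from base 26 to base 60 of both coding sequences, which is shown because it is the sequence that the closest pair has in common, though shorter than a read:
Reg3b and Reg3g, coding bases in common: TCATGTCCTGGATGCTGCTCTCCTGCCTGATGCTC

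The stretches of 150 bases before the RefSeq start of *Reg3b* and *Reg3g* are shown because both genes were higher in mTEC than in cTEC and are the most alike pair among the 10. They were taken from RefSeq on GRCm38.p6, chr6:78370735-78370884 on the plus strand for *Reg3b* and chr6:78468875-78469024 on the minus strand for *Reg3g*, and capitals mark the sequence TATAAA. The GENCODE gene of *Reg3b* begins further upstream than the RefSeq start, so the *Reg3b* stretch lies inside the position given for the gene, with 24 of its bases in an exon of that model.
Reg3b: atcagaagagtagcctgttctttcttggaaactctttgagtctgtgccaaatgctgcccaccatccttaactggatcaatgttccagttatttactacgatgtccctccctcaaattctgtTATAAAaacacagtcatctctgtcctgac
Reg3g: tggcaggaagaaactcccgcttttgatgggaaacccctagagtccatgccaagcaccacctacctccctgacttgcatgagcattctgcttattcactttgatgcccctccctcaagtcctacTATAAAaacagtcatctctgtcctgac
The stretches shared 104 of 148 aligned bases (70.3%), and the first base of TATAAA stood at position -29 from the start in *Reg3b* and -27 in *Reg3g*. A window of 250 bases before to 50 bases after the start was at hand for 7 of the 10 genes. *Muc13* had windows at separate starts, and a gene was counted where any of its windows held the sequence. On either strand TATAAA was found for *Muc2*, *Reg3b*, *Reg3g* and *Fabp1*, 4 of the 7 genes, and in 13.6% of all 32851 windows. TTTATG, a form of the site bound by CDX factors, was found for *Muc13*, *Reg3b* and *Fabp1* (11.9% of all windows). CAAAGTCCA, a form of the HNF4A site, was found for *Muc13*, in a different window from TTTATG (0.475% of all windows).

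The estimated counts of a library summed to between 21710319 and 36139815. Sorting labels were checked with marker genes: the summed level of 10 cTEC markers was 9950 to 26100 CPM (counts scaled to a common library total, per 1e6) in cTEC and 1580 to 3080 CPM in mTEC, and that of 10 mTEC markers 13900 to 25400 CPM in mTEC and 2410 to 3950 CPM in cTEC. *H2-Ab1* was lower in every Aβ0/0 library than in any WT library of the same subset, with 10600 ± 707 against 2760 ± 722 CPM in mTEC (SD, n = 3 each), and transcripts of the disrupted gene were still counted. Each Aβ0/0 mTEC library was made from fewer sorted cells than any WT mTEC library, so cell number and genotype cannot be told apart in mTEC. Each WT cTEC library was likewise made from fewer sorted cells than any WT mTEC library. Cell number and subset therefore cannot be told apart in WT. In these bulk samples, fewer cells that express a gene and less RNA of it per cell cannot be told apart either. Same-numbered cTEC and mTEC libraries of a genotype were taken to come from the same pool of mice, which the study's list of yields gives under 1 replicate number. The main tests did not use this pairing, and their p-values measure the spread between 3 libraries a group.

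In WT mTEC the 10 genes covered a wide range of levels, here compared between genes as TPM, which are corrected for transcript length and for depth. *Reg3g* was by far the most abundant, with 4670, 4810 and 3610 TPM in replicates 1, 2 and 3 and a mean of 4360 ± 656 TPM (SD, n = 3). It ranked between 17 and 24 among all genes of a WT mTEC library. *Tff3* followed with 463, 291 and 271 TPM, and its libraries overlapped those of *Reg3b* (459, 220 and 151 TPM), which in turn overlapped *Tff1* (138 ± 45.2 TPM). *Fabp1* stood at 64.3, 73.0 and 73.8 TPM, above *Tff2* on average (68.2, 36.6 and 36.3 TPM) but with overlapping libraries. *Muc13* (28.7 ± 3.22 TPM), *Fabp2* (17.8 ± 4.88 TPM) and *Vil1* (12.3 ± 4.11 TPM) were lower, the libraries of *Fabp2* and *Vil1* overlapping. *Muc2*, the main mucin of intestinal goblet cells, was the lowest, with 1.04, 1.84 and 1.45 TPM and no overlap with *Vil1*. It had 26, 125 and 72 counts, and 3 of its 8 annotated transcripts held 51.9%, 31.1% and 15.1% of its counts over all 6 mTEC libraries, whereas *Reg3g*-201 held 98.9% of the *Reg3g* counts and *Muc13*-201 and *Muc13*-202 held 87.3% and 12.7% of those of *Muc13*.

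**Figure D1:**
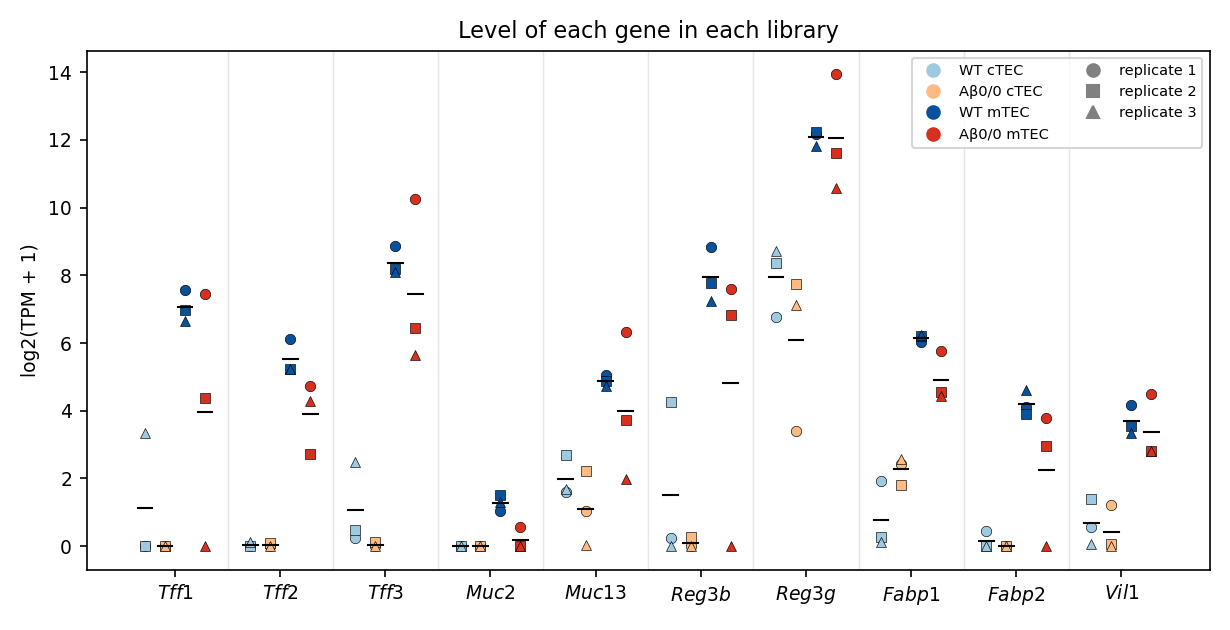
Level of the 10 mucosal genes in each of the 12 libraries, as log2(TPM + 1) on the vertical axis. Each point is a library, colors mark the group, shapes the replicate, and black lines the mean of the 3 plotted values. WT mTEC points lie above all WT cTEC points for each gene, *Reg3g* is the highest gene in every group, and Aβ0/0 mTEC points are far apart, with *Tff3* at 1230, 86.7 and 48.6 TPM.

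The comparison of mTEC with cTEC shows in which sorted subset the RNA of each gene was higher. In WT mice all 10 genes were higher in every mTEC library than in any cTEC library and all 10 passed the test (edgeR quasi-likelihood test, adjusted p below the threshold of 0.05), whereas 18.0% of the 18667 genes tested were called higher in mTEC and 8.81% higher in cTEC. Without regard to a test, the libraries did not overlap for 46.3% of these genes. DESeq2 called 9 of the 10 genes, edgeR 8 without a filter on low counts and 4 when fitted on all 12 libraries. The log2 fold changes of the 10 genes ran from 3.24 to 9.98 with a median of 6.04, and the median over all genes tested was 0.06. Markers of other cells were also spread unevenly, 11 thymocyte genes summing to 330 to 662 CPM in WT cTEC and 93.3 to 209 CPM in WT mTEC, and 6 fibroblast genes to 2400 to 2770 CPM and 193 to 257 CPM. In the direction of the 10 genes, 8 granulocyte genes summed to 16.0 to 441 CPM in WT cTEC and 584 to 790 CPM in WT mTEC, and 9 dendritic cell, macrophage and B cell genes to 3.67 to 9.11 CPM and 40.5 to 65.3 CPM. Their part in the result was not tested.

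Among the trefoil genes, *Tff2* had the largest difference. It was counted 533, 474 and 434 times in WT mTEC and 0, 0 and 1 times in WT cTEC, a ratio of 1390 with a 95% interval of 249 to 54900 that covers counting error only (adjusted p = 5.4e-04). *Tff3* was counted 2907, 3023 and 2595 times against 1, 3 and 44 times, a log2 difference of 7.33 ± 1.08 (SE, adjusted p = 0.00307). *Tff1* stood at 1133, 1239 and 924 counts in mTEC but was at 0 in WT cTEC replicates 1 and 2 and at 84 in replicate 3. Its log2 difference was 5.11 ± 1.56 (SE, adjusted p = 0.0442). This call was lost when any of 4 libraries was left out, WT cTEC replicate 1 (adjusted p = 0.0591) or WT mTEC replicate 1, 2 or 3 (0.137, 0.118 and 0.0977), and it was not made by DESeq2 (adjusted p = 0.11).

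Of the mucins, *Muc2* was at 0 in all 6 cTEC libraries. Its WT mTEC mean of 2.43 ± 1.29 CPM was 21.9 times the level of 3 counts per library (adjusted p = 0.00682, edgeR). *Muc13* was present in cTEC too, with 94, 343 and 156 counts in WT against 1539, 2274 and 1933 in mTEC, and had the smallest difference of the 10 genes (log2 3.24 ± 0.38, adjusted p = 0.00129). *Reg3g* was likewise well above 0 in WT cTEC, at 108, 331 and 417 TPM, and 3.86 ± 0.62 higher in mTEC on the log2 scale (adjusted p = 0.00412). *Reg3b*, its close relative, had 258 counts in WT cTEC replicate 2 and 2 and 0 in replicates 1 and 3, against 5095, 4094 and 2563 in mTEC (log2 5.69 ± 1.54, adjusted p = 0.0281). For *Reg3b* the same 4 libraries decided the call, with adjusted p of 0.0501 when WT cTEC replicate 1 was left out and of 0.0963, 0.0712 and 0.0569 for WT mTEC replicates 1, 2 and 3.

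Both genes of enterocyte fatty acid binding proteins were at or near 0 in WT cTEC. *Fabp1* was counted 469, 882 and 823 times in mTEC and 19, 2 and 1 times in cTEC (log2 6.38 ± 1.04, adjusted p = 0.00434). *Fabp2* was counted 232, 333 and 515 times in mTEC and 5, 0 and 0 times in cTEC (log2 7.45 ± 1.29, adjusted p = 0.00537). *Vil1* was counted 832, 926 and 700 times in mTEC and 24, 109 and 4 times in cTEC (log2 4.24 ± 0.91, adjusted p = 0.0109), and its call was lost without WT mTEC replicate 1 (adjusted p = 0.0506). The highest WT cTEC values came from a different library for different genes, WT cTEC replicate 3 for *Tff1*, *Tff3* and *Reg3g*, replicate 2 for *Muc13*, *Reg3b* and *Vil1*, and replicate 1 for *Fabp1* and *Fabp2*.

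In Aβ0/0 mice fewer of the 10 genes could be tested and fewer passed. Of the 10 genes, 6 had enough counts to be tested, all 6 had a higher mean in mTEC and 3 passed the test, *Tff2*, *Tff3* and *Reg3g*, where 3.45% of 15687 genes were called higher in mTEC and 2.15% higher in cTEC. DESeq2, which does not use the same filter, called 9 of 9 genes. Groups did not overlap for 5 of the 10 genes (*Tff2*, *Tff3*, *Reg3g*, *Fabp1* and *Vil1*) and for 28.4% of all genes tested. Thymocyte genes summed to 684 to 1040 CPM in Aβ0/0 cTEC and 50.4 to 164 CPM in Aβ0/0 mTEC, and fibroblast genes to 2340 to 2940 and 206 to 397 CPM. Granulocyte genes summed to 12.8 to 137 CPM in Aβ0/0 cTEC and 88.5 to 312 CPM in Aβ0/0 mTEC, with overlap. The part of these cells was not tested. *Tff3* had 8437, 928 and 408 counts in Aβ0/0 mTEC and 0, 1 and 0 in cTEC, a ratio of 11600 with a 95% counting interval of 2080 to 458000 (adjusted p = 0.00997). With the pool of mice as replicate block its adjusted p was 0.00766. *Tff2* had 217, 75 and 193 counts against 0, 1 and 0, a ratio of 576 with an interval of 103 to 22800 (adjusted p = 0.0348, and 0.0994 with the replicate block). *Reg3g* was 5.75 ± 1.33 higher on the log2 scale (adjusted p = 0.0482, and 0.162 with the replicate block). The calls on *Tff2* and *Reg3g* were lost whichever of the 6 libraries was left out, with adjusted p between 0.0648 and 0.168, and that on *Tff3* when any cTEC library was left out, with adjusted p between 0.0519 and 0.0774.

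*Fabp1* (log2 3.21 ± 0.97, adjusted p = 0.111), *Muc13* (4.21 ± 1.66, adjusted p = 0.232) and *Vil1* (4.94 ± 1.78, adjusted p = 0.188) did not pass in Aβ0/0 mice, although *Vil1* did without Aβ0/0 cTEC replicate 1 (adjusted p = 0.0446). The other 4 genes were removed by the filter on low counts. *Reg3b* had 2175, 2129 and 0 counts in mTEC and 0, 3 and 0 in cTEC, *Tff1* 1155, 205 and 0, *Fabp2* 203, 165 and 0, and *Muc2* 17, 0 and 0, the last 3 genes with 0 counts in all Aβ0/0 cTEC libraries. Aβ0/0 mTEC replicate 3 was at 0 for all 4, so that the groups overlapped.

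**Figure D2:**
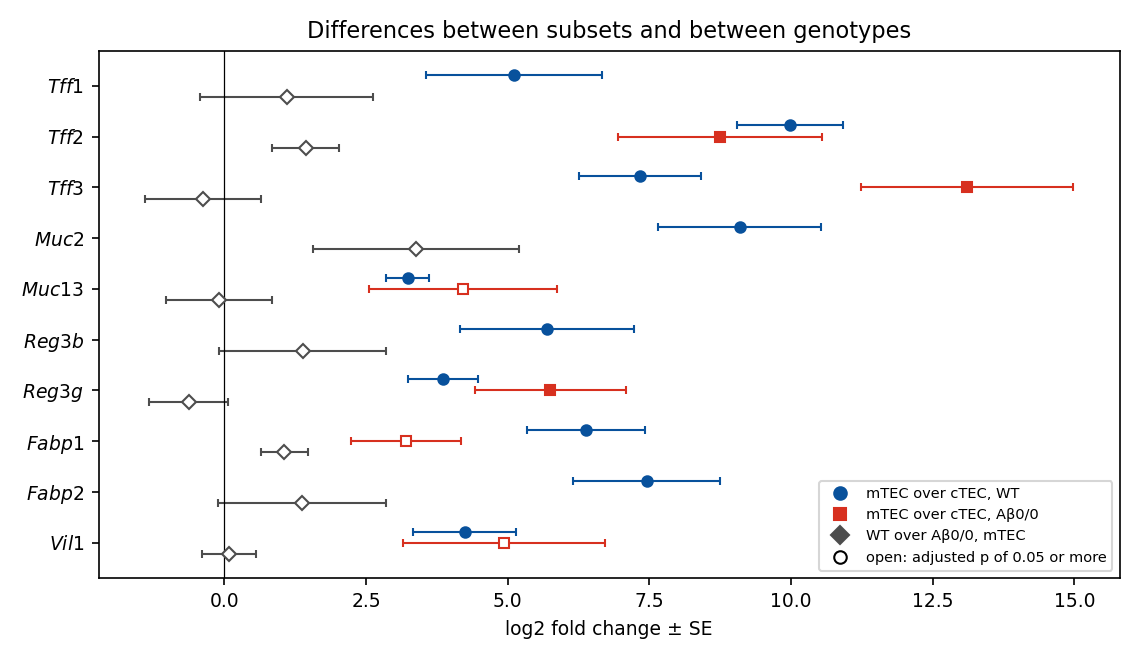
Log2 fold changes of the 10 mucosal genes with their SE (horizontal axis). Blue circles compare mTEC with cTEC in WT, red squares mTEC with cTEC in Aβ0/0 (6 genes tested), and grey diamonds WT with Aβ0/0 in mTEC, each from 3 libraries a group. Filled symbols passed an adjusted p of 0.05. All blue circles are filled, between 3.24 and 9.98, 3 of 6 red squares are filled, and all grey diamonds are open, between -0.63 and 3.38.

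The comparison of genotypes addresses how TEC differ without MHC class II. In mTEC, none of the 10 genes passed the test between genotypes, with 2 genes, *Tff2* and *Fabp1*, at an unadjusted p under 0.05, as were 2859 of all 18636 genes tested. Over the whole table, 5.32% of genes were called higher in WT and 0.338% higher in Aβ0/0. DESeq2 on the same libraries called none of the 9 genes to which it gave an adjusted p. With the replicate number as block, none of the 10 genes and no gene of the whole table was called by edgeR, with 2929 genes at an unadjusted p under 0.05. The mean was higher in WT for 7 genes and in Aβ0/0 for *Tff3*, *Muc13* and *Reg3g*, and the median log2 fold change, WT over Aβ0/0, was 1.08, against 0.0 over all genes. WT and Aβ0/0 libraries did not overlap for *Tff2*, *Muc2*, *Fabp1* and *Fabp2*, 4 of 10 genes, all 4 higher in WT, and for 26.7% of all genes tested.

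*Fabp1* had the smallest error, with 21.7, 26.6 and 26.5 CPM in WT mTEC and 17.4, 8.81 and 7.39 CPM in Aβ0/0 mTEC. All 3 Aβ0/0 libraries were below all 3 WT libraries, a log2 difference of 1.06 ± 0.42 (SE, adjusted p = 0.286, edgeR). *Tff2* was similar, at 24.7, 14.3 and 14.0 CPM against 8.76, 2.38 and 7.1 CPM (log2 1.44 ± 0.59, adjusted p = 0.31). *Fabp2* stood at 10.7, 10.0 and 16.6 CPM against 8.19, 5.23 and 0 CPM (log2 1.37 ± 1.49, adjusted p = 0.78). *Muc2* was counted 26, 125 and 72 times in WT and 17, 0 and 0 times in Aβ0/0 mTEC (log2 3.38 ± 1.82, adjusted p = 0.47).

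The other genes had Aβ0/0 replicate 1 within or above the WT range. For *Reg3b* and *Tff1*, replicate 1 was within the WT range and replicates 2 and 3 were below every WT library. *Reg3b* stood at 236, 123 and 82.6 CPM in WT and 87.8, 67.5 and 0 CPM in Aβ0/0 (log2 1.38 ± 1.48, adjusted p = 0.776). *Tff1* stood at 52.4, 37.3 and 29.8 CPM against 46.6, 6.5 and 0 CPM (log2 1.1 ± 1.53, adjusted p = 0.837). For 4 genes, Aβ0/0 replicate 1 was above every WT library and replicates 2 and 3 were below every WT library: *Tff3*, with 341, 29.4 and 15.0 CPM against 83.7 to 135 CPM, *Muc13*, with 168, 31.1 and 6.91 CPM against 62.3 to 71.2 CPM, *Reg3g*, with 7670, 1860 and 852 CPM against 1980 to 2670 CPM, and *Vil1*, with 47.4, 16.5 and 15.1 CPM against 22.6 to 38.5 CPM. Their log2 fold changes were -0.38 ± 1.02, -0.09 ± 0.93, -0.63 ± 0.7 and 0.08 ± 0.48, with adjusted p from 0.784 to 0.985.

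Aβ0/0 mTEC replicate 1 was the highest of its group for all 10 genes, and replicate 3 was the lowest for 8. Over all 17348 genes with a WT mTEC mean above 1 CPM, replicate 1 was the highest for 40.0% and replicate 3 the lowest for 29.7%. Relative to the WT mTEC mean, the median over the 10 genes was 0.933 in replicate 1, 0.386 in replicate 2 and 0.124 in replicate 3, whereas the median over all those genes was 0.937, 0.764 and 0.832. Medians fell in the same order for 36 enterocyte genes (1.15, 0.548 and 0.219), 21 goblet cell genes (1.1, 0.523 and 0.0724) and 13 mucin genes (1.29, 0.166 and 0.0863). They also did so for 19 antimicrobial genes (0.892, 0.677 and 0.284) and 12 microfold cell genes (2.0, 1.02 and 0.795). They did not for the transcription factors of gut epithelium (0.753, 0.779 and 0.258), tuft cell genes (3.11, 0.751 and 0.876) or gastric genes (0.131, 0.0 and 0.0). *Reg3g* alone made up 1.57% of all TPM in replicate 1, where it ranked 3 among all genes, and 0.313% and 0.153% in replicates 2 and 3, against 0.361% to 0.481% in WT mTEC. The ratio of *Reg3g* to *Reg3b* was 10.2 to 23.9 in WT mTEC, 81.5 in Aβ0/0 replicate 1 and 27.8 in replicate 2. As SD of log2(CPM + 1), the spread within Aβ0/0 mTEC had a median of 1.63 over the 10 genes and of 0.53 over all 19461 genes tested on 12 libraries. In WT mTEC the same values were 0.35 and 0.25.

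Leaving out Aβ0/0 mTEC replicate 1 turned the direction of *Tff3*, *Muc13* and *Reg3g*. *Tff3* then passed the test, higher in WT by 2.03 on the log2 scale (adjusted p = 0.0338, edgeR), and *Muc2*, at 0 in both Aβ0/0 libraries that remained, passed too (adjusted p = 0.0319), while *Muc13* (1.63, adjusted p = 0.164) and *Reg3g* (0.62, adjusted p = 0.347) did not. Calls over the whole table also rose without this library, from 1054 of 18636 to 2377 of 19774 genes, 2067 of them higher in WT. The same library stood apart in tuft cell genes, 12 of which summed to 2380 CPM in it, to 469 and 556 CPM in the other Aβ0/0 mTEC libraries and to 391 to 887 CPM in WT. Markers of hematopoietic cells also differed between genotypes in mTEC. The 8 granulocyte genes summed to 584 to 790 CPM in WT and 88.5 to 312 CPM in Aβ0/0, and 9 dendritic cell, macrophage and B cell genes to 40.5 to 65.3 and 2.46 to 33.8 CPM. *Ngp*, *Adgre1* and *Itgax* were at 0 in every Aβ0/0 mTEC library. The part of these cells in the levels of the 10 genes was not tested.

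**Figure D3:**
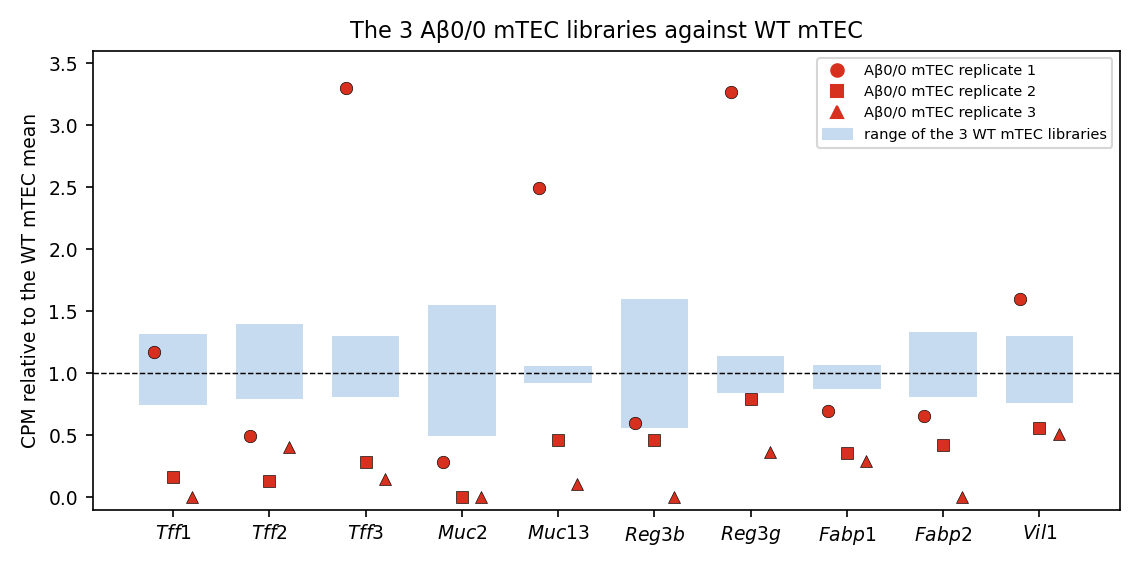
CPM of each mucosal gene in the 3 Aβ0/0 mTEC libraries, divided by the WT mTEC mean (vertical axis, linear). Red symbols are the Aβ0/0 libraries by replicate, and blue bars span the 3 WT mTEC libraries. Replicate 1 reaches 3.3 for *Tff3* and 3.27 for *Reg3g*, while replicate 3 lies between 0 and 0.508 for all 10 genes.

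In cTEC, where only 4 of the 10 genes had enough counts to be tested, no gene passed between genotypes, none had an unadjusted p under 0.05, and 0.0194% of 15432 genes were called in either direction. DESeq2 on the same libraries called none of the 5 genes to which it gave an adjusted p. *Reg3g* stood at 50.0, 146 and 253 CPM in WT cTEC and at 4.16, 116 and 66.7 CPM in Aβ0/0 cTEC, with overlapping groups (log2 1.31 ± 0.96, adjusted p = 1). *Muc13* (log2 0.92 ± 1.4) and *Vil1* (log2 0.78 ± 1.87) overlapped as well. *Fabp1* went the other way, at 0.839, 0.0615 and 0.0363 CPM in WT and 1.25, 0.88 and 1.56 CPM in Aβ0/0 cTEC, all 3 Aβ0/0 libraries above all 3 WT libraries (log2 -2.02 ± 1.4, adjusted p = 1). *Tff3*, removed by the filter, had 1, 3 and 44 counts in WT and 0, 1 and 0 in Aβ0/0 cTEC, nearly all of them in WT replicate 3. Among the 4 genes tested, groups did not overlap for *Fabp1*, beside 7.4% of all genes tested. Thymocyte genes summed to 330 to 662 CPM in WT and 684 to 1040 CPM in Aβ0/0 cTEC and 4 general epithelial genes to 4400 to 6890 and 7380 to 9390 CPM, also without overlap, and their part in the *Fabp1* difference was not tested.

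Whether the genotype difference itself differed between subsets was tested on all 12 libraries, where 0.0103% of 19461 genes were called. None of the 10 genes was among them, by edgeR or by DESeq2, and 2 had an unadjusted p under 0.05 by edgeR. The difference of *Fabp1* was 3.15 ± 1.28 more toward WT in mTEC than in cTEC on the log2 scale (adjusted p = 0.636, edgeR), and that of *Tff3* was -5.76 ± 2.44, more toward WT in cTEC (adjusted p = 0.669).

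The genes were set beside other lists of gut genes, all chosen by name. Among the gut lists, genes of gastric cells, such as gastrokines, progastricsin and the proton pump, had the largest number of calls between genotypes in mTEC. All 12 gastric genes had a higher mean in WT, 4 of 12 were called, and their median log2 fold change was 4.32. DESeq2 called 6 of the gastric genes, while with edgeR 11 were called without Aβ0/0 mTEC replicate 1 and 0 when any 1 of the other 5 mTEC libraries was left out. Over all genes, 2444 were called by DESeq2, 2377 without Aβ0/0 mTEC replicate 1 and 0 to 83 without 1 of the others, against 1054. *Gif* (gastric intrinsic factor), *Gkn2* and *Lipf* (gastric lipase) were at 0 in every Aβ0/0 mTEC library. Their WT means were 73.9, 42.0 and 27.0 times the level of 3 counts per library. *Gkn1* was counted 227, 250 and 481 times in WT and 0, 0 and 1 times in Aβ0/0 mTEC (adjusted p = 0.0352).

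For genes nearer to the 10 in the intestine, 0 or 1 gene a list was called higher in WT mTEC than in Aβ0/0 mTEC, beside 5.32% of all genes tested. None of 22 other goblet cell genes and none of 13 other mucin genes were called, with 3 genes of each list at an unadjusted p under 0.05. DESeq2 called 2 goblet cell genes higher and 1 lower in WT and 2 mucin genes higher, and edgeR without Aβ0/0 mTEC replicate 1 called 3 and 2 genes higher in WT. Among the goblet cell genes *Fcgbp*, a protein of the mucus gel, was the highest at 3250 ± 1180 CPM in WT and 4550 ± 2020 CPM in Aβ0/0, and *Clca1* was counted 17825, 698 and 13 times in Aβ0/0 replicates 1, 2 and 3 against 2005 to 2904 times in WT. *Fabp6*, the ileal bile acid binding protein, was the only one of 36 enterocyte genes called (log2 5.72 ± 1.18, adjusted p = 0.0397), *Ang4*, a Paneth cell angiogenin, the only one of 19 antimicrobial genes (3.15 ± 0.58, adjusted p = 0.0352), and *Fabp3* the only one of 7 other Fabp genes (6.42 ± 1.39, adjusted p = 0.0468). *Hnf4a*, a transcription factor of gut epithelium, stood at 143, 102 and 29 counts in WT and 73, 1 and 1 in Aβ0/0 mTEC (1.75 ± 1.74, adjusted p = 0.755). *Aire* fell from 690 ± 347 CPM in WT to 141 ± 42.7 CPM in Aβ0/0 (2.17 ± 0.36, adjusted p = 0.0352), while *Fezf2* was at 429 ± 46.4 and 254 ± 48.7 CPM (0.63 ± 0.21, adjusted p = 0.208). When any 1 WT mTEC library was left out, no gene of the whole table was called between genotypes by edgeR, with 2060 to 2183 genes at an unadjusted p under 0.05, and 83 and 13 genes were called without Aβ0/0 mTEC replicates 2 and 3.

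Between WT subsets, where 18.0% of all genes tested were called higher in mTEC and 8.81% higher in cTEC, calls in these lists were mostly toward mTEC. In all, 10 of 22 goblet cell genes, 8 of 13 mucin genes, 24 of 36 enterocyte genes, 13 of 19 antimicrobial genes, 10 of 24 transcription factors of gut epithelium, 4 of 7 other Fabp genes and 9 of 12 microfold cell genes were called higher in mTEC, and 1, 0, 3, 0, 1, 0 and 0 higher in cTEC. The medians of their log2 fold changes were 3.04, 3.75, 4.17, 4.06, 2.98, 3.94 and 1.84. Of 6 other genes of the villin family, relatives of *Vil1*, 1 was called higher in mTEC and 2 higher in cTEC, with a median of 0.51. *Mucl2* and *Mucl1* had the largest fitted log2 fold changes of the mucin genes and *Akp3*, an intestinal alkaline phosphatase, of the enterocyte genes. Each was at 0 in all WT cTEC libraries, so no counts in cTEC set the size of these fold changes. Against the floor of 3 counts per library, *Akp3* was at least 147-fold higher in mTEC. *Fabp6*, counted in both subsets, stood at 47.9 CPM in WT mTEC and 0.0371 CPM in WT cTEC.

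**Figure D4:**
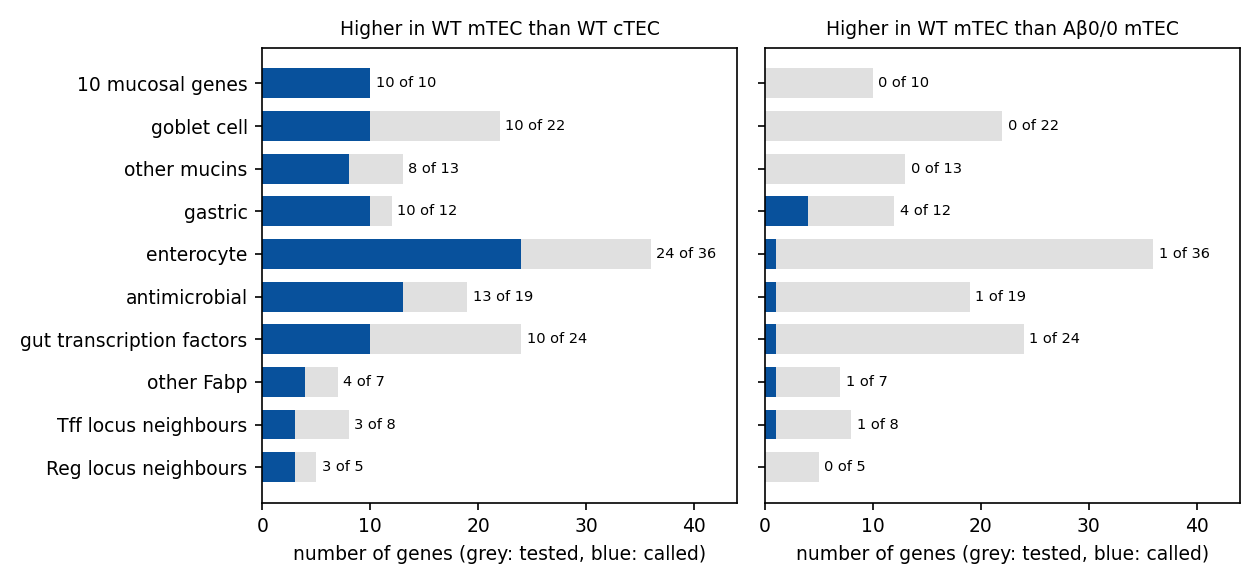
Number of genes called higher in WT mTEC than in WT cTEC (left) and higher in WT mTEC than in Aβ0/0 mTEC (right) for the 10 mucosal genes and for other lists. Grey bars count the genes tested and blue bars those with an adjusted p below 0.05. On the left 10 of 10 mucosal genes are called and on the right 0 of 10, where the gastric list has 4 of 12.

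The neighbours of the trefoil and Reg genes did not all follow them. Of 8 tested neighbours of the trefoil genes, *Slc37a1*, *Pde9a* and *Rsph1* were called higher in WT mTEC than in WT cTEC, by 3.08 ± 0.75, 3.03 ± 0.5 and 2.15 ± 0.57 on the log2 scale, while *Abcg1*, *Ubash3a*, *Umodl1*, *Wdr4* and *Ndufv3* were not. *Tmprss3*, the gene next to *Tff1*, had 30, 33 and 8 counts in WT mTEC and 0 in all other libraries. Between genotypes in mTEC, *Umodl1* was the only neighbour called, with 149, 105 and 197 counts in WT and 0 in all 3 Aβ0/0 libraries. Within the Reg cluster, *Reg3a* was counted 140, 492 and 268 times in WT mTEC, 0, 0 and 19 times in Aβ0/0 mTEC and 0 times in all cTEC libraries (genotype adjusted p = 0.231). *Reg1* had its highest value, 4959 counts, in Aβ0/0 mTEC replicate 2, against 229 and 20 in replicates 1 and 3, so the Aβ0/0 library with the most *Reg1* was not the one with the most *Reg3g*. *Reg2* was present in all libraries, with 152 to 774 counts, and *Reg3d* had 4, 47 and 0 counts in WT mTEC and 0 elsewhere.

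The genes most like each of the 10 in pattern were sought by Pearson's r of log2(CPM + 1) over the 12 libraries. All 12 points share the split into mTEC and cTEC, and the values are given as a description. *Tff1* was closest to *Cryaa* (r = 0.983), *Psg27* and *Il1rl1*, *Tff2* to *Clrn3* (0.993), *Cldn13* and *Sfrp5*, and *Tff3* to *Kif1a* (0.983), *Ero1lb* and *Prg2*. *Muc2* was closest to *Sucnr1* (0.999), *Stmnd1* and *Sprr2e*, and *Muc13* to *Zcchc18* (0.974) and, among others, *Cdh17* (0.959), an intestinal cadherin. Among the genes closest to *Reg3b* were *Krt78* (0.987) and *Ivl*, the last an envelope protein of keratinocytes. *Reg3g* was closest to *Fbxo2* (0.957), *Chchd10* and *Ccl6*. *Fabp1* was closest to *Cdkn2b* (0.98), *Grasp* and *Sdr9c7*, *Fabp2* to *Gdf3* (0.992), *Gm11639* and *Btnl1*, and *Vil1* to *Car8* (0.989), *Gpr176* and *Spib*, the last a transcription factor of microfold cells. None of the 10 genes was among the 3 closest of another.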

How the data were processed

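TEC were sorted from pooled thymi, libraries were made with the SMART-Seq v4 low input kit and sequenced as paired ends on a HiSeq 3000. Per the labels, bcl2fastq 2.20.0, Trim Galore, kallisto 0.43, DESeq2 and mm10 were used. The deposited estimated counts and the deposited TPM were made by the authors with kallisto for 109282 transcripts a library. The deposited log2 values are rlog values made by the authors with DESeq2 over all 12 libraries. kallisto shares reads out between similar transcripts, and the cDNA was amplified by PCR without molecular identifiers, so intervals cover counting error only.

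Of the transcripts, 107987 matched GENCODE M21 by identifier. The others, with 0.45% to 0.512% of a library's counts, were not used. Per gene, estimated counts were added up and rounded to whole numbers. Tests used edgeR 4.0.16 in R 4.3.3 (TMM, filterByExpr, robust quasi-likelihood F test) on the libraries compared, or on all 12 for the interaction, with Benjamini-Hochberg adjustment over all genes tested and a threshold of 0.05. The SE is the log2 fold change divided by the square root of F. A group at 0 was given a floor of 3 counts per library, scaled by library totals, and groups with 1 to 3 counts in all an exact interval of the ratio. CPM were scaled by the plain library total, and log2(CPM + 1) with TMM. The scripts were tested on simulated counts. Alternatives were DESeq2 1.42.0, limma 3.58.1 on rlog values, DESeq2 size factors, no filter, fits on 12 libraries, a replicate block, CPM in place of TPM, and each library left out. Other steps used Python 3.11.15 with pandas 2.3.3, scipy 1.17.1, Biopython 1.88 and matplotlib 3.10.9.

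The study lists cTEC and mTEC yields per sorting under replicate numbers, so same-numbered libraries of a genotype were taken as paired. The main tests had no term for this pairing, which entered only in the fits with a replicate block. After subtracting group means, such pairs correlated at 0.284, 0.0142 and 0.132 in WT and 0.286, 0.135 and 0.0393 in Aβ0/0. The 10 genes and the 22 other lists were chosen with earlier results of these data known. Of each other list, up to 4 called genes with the largest fold change, or up to 3 with the highest mean CPM where none was called, were to be named, besides *Aire*, *Fezf2*, *H2-Ab1*, *Hnf4a*, the neighbours of the trefoil and Reg genes and the 3 genes most like each of the 10. *Clca1* was named after its values were seen. Some genes that this rule names are not reported here.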

Additional observations from a re-analysis of the deposited data

Results flagged for a closer look

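*Fabp1* was the only one of the 10 genes whose genotype difference went in opposite directions in the subsets in every library. All WT mTEC libraries were above all Aβ0/0 mTEC libraries (21.7 to 26.6 against 7.39 to 17.4 CPM), and all Aβ0/0 cTEC libraries were above all WT cTEC libraries (0.88 to 1.56 against 0.0363 to 0.839 CPM). The cTEC values rest on 19, 2 and 1 counts in WT and 35, 31 and 56 counts in Aβ0/0. Thymocyte and general epithelial genes were also lower in every WT than in any Aβ0/0 cTEC library (330 to 662 against 684 to 1040 CPM and 4400 to 6890 against 7380 to 9390 CPM), and their part was not tested. The test of the difference between the subsets gave 3.15 ± 1.28 on the log2 scale (adjusted p = 0.636, edgeR), which did not pass the threshold, and the adjusted p ran from 0.0638 to 1.0 over the alternatives. With 3 libraries a group, no formal test for a single outlying library was made.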

How the results depend on the processing

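The number of the 10 genes called, higher or lower, was 0 in mTEC between genotypes and remained 0 except with limma on rlog values (1, *Muc2*) and without Aβ0/0 mTEC replicate 1 (2), the range over left-out libraries being 0 to 2. In cTEC it was 0, and 1 (*Tff3*) with DESeq2 on 12 libraries. For the interaction it was 0, and 1 (*Muc2*) with limma on rlog values. Between WT subsets it was 10, 7 to 10 with a library left out, 8 without a filter and 4 with edgeR on 12 libraries. Between Aβ0/0 subsets it was 3, and 9 with DESeq2 on the same or on 12 libraries, 5 with limma on rlog values or with edgeR on 12 libraries, 1 with the replicate block, and 0 to 2 with a library left out. The 4 genes removed by the filter return in the edgeR fit on 12 libraries. DESeq2 on the same libraries as the main test gave an adjusted p to 9 of the 10 genes.

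With the replicate block the number remained 0 between genotypes in both subsets and in the interaction and 10 between WT subsets, and *Tff3* (0.89) and *Muc13* (0.9) changed sign in mTEC. The study's list of yields gives WT and Aβ0/0 under common replicate numbers without saying what a number stands for. Between genotypes, same-numbered libraries correlated after subtracting group means at 0.32, 0.139 and 0.0703 in mTEC and at 0.3, -0.104 and 0.0197 in cTEC, so pairing across genotypes was not settled. In mTEC, limma on rlog values also turned *Tff3* (0.8), *Muc13* (0.8) and *Reg3g* (0.02). Over left-out libraries, the mTEC log2 fold change ran from -0.91 to 2.03 for *Tff3*, -0.63 to 1.63 for *Muc13*, -1.09 to 0.62 for *Reg3g* and -0.2 to 0.74 for *Vil1*, and in cTEC from -0.59 to 4.96 for *Vil1*. The interaction turned with limma on rlog values for *Tff1* (1.47), *Reg3b* (1.53) and *Fabp2* (1.15). Over left-out libraries it ran from -7.47 to 1.15 for *Tff1*, -0.49 to 3.23 for *Tff2*, -2.93 to 0.77 for *Muc13*, -7.88 to 1.07 for *Reg3b*, -3.26 to 1.39 for *Fabp2* and -4.88 to 0.69 for *Vil1*. The cause was not tested. CPM in place of TPM changed no direction between WT and Aβ0/0 mTEC means.

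Over all genes, calls between genotypes in mTEC numbered 1054, and 2444 with DESeq2, 27 without a filter, 0 with the replicate block, 20 with edgeR on 12 libraries and 0 to 2377 with a library left out. In cTEC they numbered 3, and 0 to 351 over the alternatives. Between subsets they numbered 4997 in WT and 878 in Aβ0/0, with 2760 to 7572 and 338 to 3987 over the alternatives, and for the interaction 2, with 0 to 974. The share of mTEC calls higher in WT was 94.0%, 50.0% with edgeR on 12 libraries, 66.7% without a filter and 77.8% with DESeq2, where the median log2 fold change of all genes was 0.2 in place of 0.0. Counts of 0 to 3 in most cTEC libraries limit what can be said of *Tff1*, *Tff2*, *Tff3*, *Muc2*, *Reg3b* and *Fabp2* there.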
